A study of Mus musculus with 9 samples.

Results

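The chromatin of 10 genes whose loss causes deafness was followed in the embryonic cochlear duct: *Myo7a*, *Myo6*, *Myo15*, *Cdh23*, *Pcdh15*, *Ush1c*, *Espn* and *Tmc1*, which build the hair bundle, and *Otof* and *Slc17a8*, which serve the synapse of the hair cell. They were 10 of 22359 protein-coding genes. A peak of open chromatin was counted for one of them where its summit lay closer to a start site of a protein-coding transcript of that gene than to a start site of any other gene, and within 500000 bp of it. This gave 230 of 286577 peaks over all samples. Peaks of all samples that overlapped or lay within 100 bp of each other were joined into regions, and 69 of 69354 regions held a peak of a listed gene. Of these 69 regions, 9 overlapped a promoter (1000 bp upstream to 100 bp downstream of a protein-coding start site) and 60 (87.0%) were distal, against 78.8% of all regions. The nearest start site names a region here and does not show which gene the region acts on.

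The assay was ATAC-seq: a transposase inserts sequencing adapters where DNA is not wrapped in nucleosomes. Cells were sorted from cochlear ducts of B6;129S-Sox2tm2Hoch/J embryos, described as heterozygous, with EGFP inserted in the coding region of *Sox2*, so that the Sox2-EGFP- cells carried the altered allele too. Sox2-EGFPhigh+ cells, the brightest cells and the prosensory population, were taken at E12, E14.5 and E16 with 2 samples at each stage. Sox2-EGFP- cells, the cells of the duct without EGFP, were taken at E14.5 (1 sample, numbered replicate 2) and at E16 (2 samples), and there was no Sox2-EGFP- sample at E12. Dimly fluorescent cells were left out of both gates, and each Sox2-EGFPhigh+ sample pooled the ducts of a separate litter. Glia of the spiral ganglion also carry the reporter and were removed by dissection. Groups follow the sample titles, since the separate cell type tags give the other cell type for 3 of the 4 E16 samples. Both E16 samples numbered 1 were sequenced in batch 1 and the other 7 samples in batch 2. The study describes the E16 Sox2-EGFP- cells as taken alongside the Sox2-EGFPhigh+ cells, the labels do not say whether samples of the same number share ducts, and the tests below treat the samples as independent.

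Hair cells arise from prosensory cells and turn sound into an electrical signal through the hair bundle, a staircase of actin-filled stereocilia joined by tip links. Tip links made of cadherins pull open the transduction channel, motor myosins and scaffold proteins hold the links in place, and glutamate is released at the ribbon synapse below. Their roles in the bundle and at the synapse begin once hair cells differentiate. The question asked of the lists was whether the genes were already open in the Sox2-EGFPhigh+ cells before then. Expression was not measured, so the use of these genes in other cells is not known from these data. The pools measure many cells at once, so that a peak present in a fraction of the cells and a weaker opening of every cell cannot be told apart, and the later gates may hold young hair cells.

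Regions were printed for the genes where they carried the results: the distal region of *Myo6*, *Ush1c*, *Cdh23* and *Pcdh15* with the highest mean position among those found in all 4 Sox2-EGFPhigh+ samples of E14.5 and E16 but never in Sox2-EGFP- cells, the *Espn* region found in every Sox2-EGFPhigh+ sample, and the promoter regions of *Slc17a8*, *Myo7a* and *Otof*. Each sequence is mm9, plus strand, around the median summit of the peaks, without bases annotated as untranslated exon. Capitals mark matches on either strand to the consensus letters of transcription factor families active in the ear. The Sox letters searched were ACAANG, and the letters of the E-box, which is bound by Atoh1 and related factors and reads the same on both strands, were CAGCTG. For the Gata family the letters were AGATAA.

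Myo6, chr9:80040153-80040353, intron 1: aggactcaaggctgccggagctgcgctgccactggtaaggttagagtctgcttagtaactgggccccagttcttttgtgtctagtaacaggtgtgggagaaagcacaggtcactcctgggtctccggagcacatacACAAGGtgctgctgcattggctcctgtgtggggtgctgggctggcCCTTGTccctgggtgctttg
Ush1c, chr7:53483171-53483371, intron 4: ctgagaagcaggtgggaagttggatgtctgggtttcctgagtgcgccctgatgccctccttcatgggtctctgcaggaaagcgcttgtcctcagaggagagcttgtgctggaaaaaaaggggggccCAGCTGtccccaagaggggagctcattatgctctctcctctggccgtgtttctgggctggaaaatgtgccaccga
Cdh23, chr10:59986123-59986323, summit in intron 10: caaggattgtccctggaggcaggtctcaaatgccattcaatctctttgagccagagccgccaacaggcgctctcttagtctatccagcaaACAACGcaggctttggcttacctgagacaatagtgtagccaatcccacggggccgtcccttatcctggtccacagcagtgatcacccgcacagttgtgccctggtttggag
Pcdh15, chr10:73286036-73286236, intron 3: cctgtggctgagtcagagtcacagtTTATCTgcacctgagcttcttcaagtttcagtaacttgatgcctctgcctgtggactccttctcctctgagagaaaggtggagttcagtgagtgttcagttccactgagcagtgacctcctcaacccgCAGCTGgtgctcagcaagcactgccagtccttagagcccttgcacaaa
Espn, chr4:151512693-151512893, summit in intron 4: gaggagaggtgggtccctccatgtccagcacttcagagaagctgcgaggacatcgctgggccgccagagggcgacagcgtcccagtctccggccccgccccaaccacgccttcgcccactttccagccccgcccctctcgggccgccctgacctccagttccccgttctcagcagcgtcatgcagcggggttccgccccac
Slc17a8, chr10:89083999-89084164, upstream of the first exon: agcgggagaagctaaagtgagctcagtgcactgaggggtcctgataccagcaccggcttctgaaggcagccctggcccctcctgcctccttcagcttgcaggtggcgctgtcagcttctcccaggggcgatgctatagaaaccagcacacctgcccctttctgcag
Myo7a, chr7:105268829-105269029, upstream of the first exon: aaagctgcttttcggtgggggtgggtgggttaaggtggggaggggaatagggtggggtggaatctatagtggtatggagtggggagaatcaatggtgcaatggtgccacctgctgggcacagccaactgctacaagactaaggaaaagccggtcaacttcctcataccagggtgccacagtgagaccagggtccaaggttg
Otof, chr5:30764306-30764368, upstream of the first exon: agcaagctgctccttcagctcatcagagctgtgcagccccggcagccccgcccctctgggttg

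The *Myo6* window held the Sox letters at 2 places and the *Cdh23* window at 1. The *Ush1c* window held 1 E-box, and the *Pcdh15* window held 1 Gata and 1 E-box match. None of the letters were found in the *Espn*, *Slc17a8*, *Myo7a* and *Otof* windows, which says only that these letters are not in these bases. Such matches were common everywhere. In windows reaching 200 bp to each side of the summit, the Sox letters were present in 39 of the 60 distal regions of the listed genes (65%) and in 66.9% of all distal regions. The E-box was present in 13 (21.7%, against 28.3%) and the Gata letters in 13 (21.7%, against 20.5%). AATCACNGC (Gfi1) was present in 0 (1.22% of all distal regions), ATAATTAAT (Pou4f) in 1 region of *Cdh23* (1.67%, against 0.267%) and GTTGCCATG (Rfx) in 1 region of *Myo15* (1.67%, against 1.09%).

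The number of peaks found at the 10 genes moved with the length of the lists. The E12 Sox2-EGFPhigh+ lists held 13817 and 7577 peaks, of which 9 and 4 belonged to the listed genes. The E14.5 Sox2-EGFPhigh+ lists held 66332 and 22962 peaks with 68 and 14 of the listed genes, and the E16 Sox2-EGFPhigh+ lists 39314 and 65870 peaks with 30 and 63. In Sox2-EGFP- cells the E14.5 list had 23302 peaks with 15 of the listed genes, and the E16 lists 23848 and 23899 with 14 and 13. Per 10000 peaks this was 5.30 to 10.3 in Sox2-EGFPhigh+ samples and 5.45 to 6.45 in Sox2-EGFP- samples. The sample with the shorter E14.5 Sox2-EGFPhigh+ list, at 6.11 per 10000, lay within the range of the Sox2-EGFP- samples. All 10 genes had a peak in the 3 longest lists, all of Sox2-EGFPhigh+ cells, while 7 had one in E14.5 replicate 2, 4 and 3 in the E12 samples and 6 in each Sox2-EGFP- sample. The share of all protein-coding genes with a peak of any position was not counted, so these counts show no trait of the listed genes. The lists carry no reads, and a peak missing from a short list does not show closed chromatin.

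**Figure D1:**
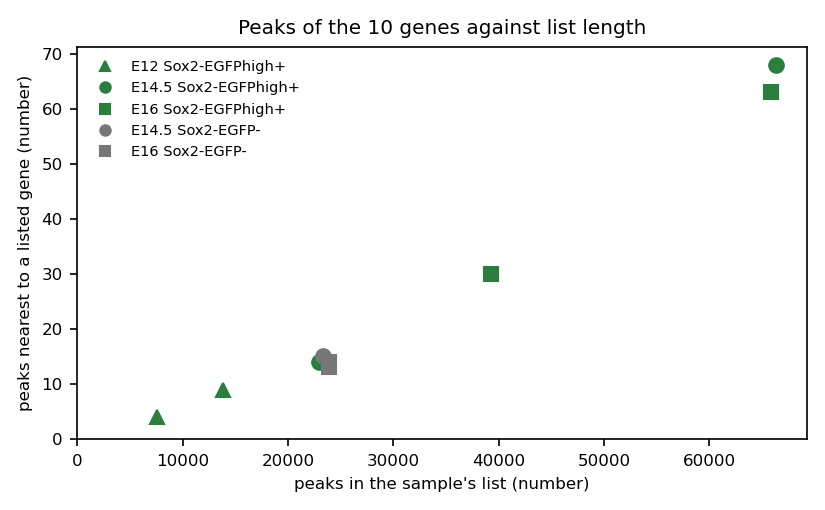
Peaks nearest to a listed gene (vertical axis, number) against all peaks in the list of each of the 9 samples (horizontal axis, number), green for Sox2-EGFPhigh+ and grey for Sox2-EGFP-, with 1 symbol shape per stage. The counts run from 4 in the shortest list, of 7577 peaks, to 68 in the longest, of 66332.

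At promoters, 7 of the 10 genes had a peak in at least 1 Sox2-EGFPhigh+ sample, beside 63.7% of all protein-coding genes. The 3 without one were *Myo15*, *Cdh23* and *Tmc1*. By stage, 2 of 10 (*Espn* and *Myo6*) had a promoter peak in at least 1 E12 sample, beside 39.4% of all genes. The count was 7 at E14.5, beside 63.6%, and the same 7 genes at E16, beside 63.1%. In Sox2-EGFP- cells 3 of 10 had one at E14.5, beside 54.6% of all genes, and the same 3 (*Espn*, *Myo6* and *Otof*) at E16, beside 56.3%. With every list cut to the length of the shortest, the count in Sox2-EGFPhigh+ cells was 2 of 10 (*Espn* and *Myo6*), beside 42.7% of all genes.

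**Figure D2:**
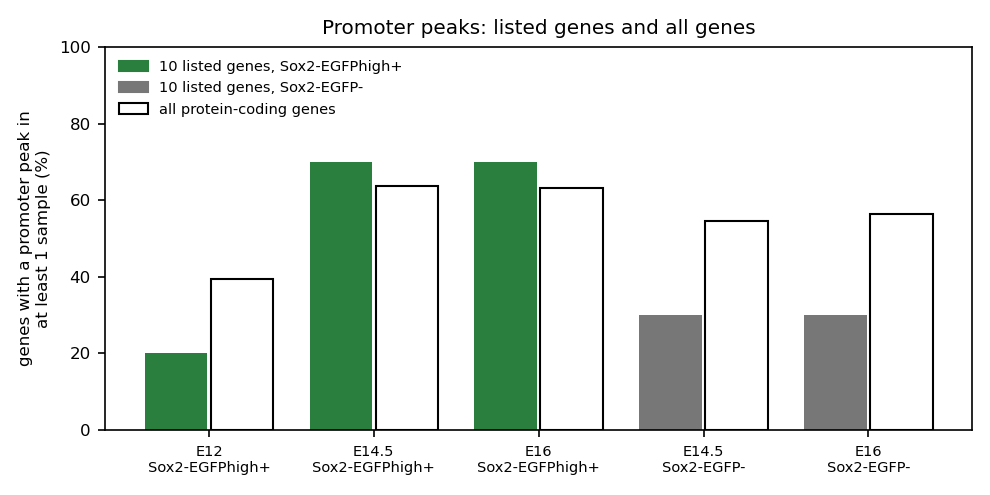
Share of genes with a promoter peak in at least 1 sample of each group (vertical axis, percent), filled bars for the 10 listed genes and open bars for all 22359 protein-coding genes. The filled bar stands at 20% at E12, below the open bar of 39.4%, at 70% in the later Sox2-EGFPhigh+ groups and at 30% in both Sox2-EGFP- groups.

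A promoter peak was found in Sox2-EGFPhigh+ cells alone for 4 of the 10 genes, beside 7.56% of all genes, namely *Myo7a*, *Pcdh15*, *Slc17a8* and *Ush1c*. For 0 of 10 it was found in Sox2-EGFP- cells alone, beside 0.331%. For *Pcdh15* this call depends on where the promoter ends: with promoters counted by a summit within 1000 bp of a start site, *Pcdh15* had a peak in 5 Sox2-EGFPhigh+ and in all 3 Sox2-EGFP- samples, and 3 of 10 genes were left in Sox2-EGFPhigh+ cells alone. Only *Slc17a8* had a promoter peak in all 4 Sox2-EGFPhigh+ samples of E14.5 and E16 and in no Sox2-EGFP- sample, beside 1.5% of all genes. The 4 calls rest on the longer lists. In lists of equal length *Myo7a*, *Pcdh15*, *Slc17a8* and *Ush1c* had no promoter peak in any sample, and 1 of 10 genes, *Espn*, was left in Sox2-EGFPhigh+ cells alone, beside 6.73% of all genes. That *Espn* peak came from 1 E12 sample, and in the full lists 2 Sox2-EGFP- samples had an *Espn* promoter peak.

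The start sites of the genes differed in CpG content, which separates broadly used promoters from those used in few cell types. The first start sites of *Pcdh15*, *Myo6* and *Espn* had an observed over expected CpG of 0.830, 0.742 and 0.626, and the other 7 lay between 0.129 (*Myo15*) and 0.270 (*Slc17a8*), under the limit of 0.6 used here for low CpG. Of the 3 genes above the limit, 2 had a promoter peak at E12, beside 68.5% of all such genes, and 3 had one at some stage in Sox2-EGFPhigh+ cells, beside 97.2%. All 7 low-CpG genes were without a promoter peak at E12, beside 85.5% of all 12075 low-CpG genes. At some stage 4 of the 7 had one in Sox2-EGFPhigh+ cells, beside 35.2%, and 3 of the 7 had it in Sox2-EGFPhigh+ cells alone, beside 10.5%.

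Each peak was given its percentile in its own list by −log10 p, from 0 for no peak to 100 for the strongest. The percentile does not remove the effect of list length, since a longer list adds weak peaks below a given peak and raises its percentile. The rank in the list, counted from the strongest peak, moves the other way. The 4 Sox2-EGFPhigh+ samples of E14.5 and E16 were then compared with the 3 Sox2-EGFP- samples by a two-sided exact permutation test for each gene, with Benjamini-Hochberg adjustment over all 14323 genes with a promoter peak in these samples. With 35 ways to choose 4 of 7 samples the smallest p is 0.0286, and 0 of 14323 genes passed an adjusted p of 0.05, while 1383 had an unadjusted p under 0.05. The groups did not overlap, with Sox2-EGFPhigh+ higher, for 1 of the 7 listed genes tested (14.3%), beside 13.6% of all genes tested. With the rank in place of the percentile, a choice made after seeing the data, it was again 1 of 7, *Slc17a8*, beside 5.75%. On the rank *Otof* was separate in the other direction, as given below.

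Among the myosins, *Myo6*, a motor that walks toward the pointed end of actin and anchors the base of the stereocilia, had a promoter peak in all 9 samples (chr9:80012089-80013232). Its fold enrichment over local background was 5.97 and 6.31 at E12, 10.3 and 6.35 at E14.5 and 9.26 and 9.04 at E16 in Sox2-EGFPhigh+ cells, and 5.49, 9.06 and 6.94 in Sox2-EGFP- cells. The percentiles were 67.4 and 71.4 at E12 and 93.9 ± 2.78 (SD, n = 4) at E14.5 and E16, against 88.4 ± 2.54 (SD, n = 3) in Sox2-EGFP- cells. The groups overlapped and did not differ beyond their spread (two-sided exact permutation p = 0.0857, Benjamini-Hochberg adjusted p = 0.427).

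*Myo7a*, the motor that carries the upper tip link anchor, had a promoter peak (chr7:105268801-105269284, summit at -895 bp from the nearest start site) in E14.5 replicate 1 and in both E16 samples of Sox2-EGFPhigh+ cells, with fold enrichments of 4.81, 4.40 and 4.29. E12, E14.5 replicate 2 and the 3 Sox2-EGFP- samples had none, and the exact permutation p was 0.143 (two-sided, Benjamini-Hochberg adjusted p = 0.452). The *Myo7a* peaks lay at the edge of the promoter window. With 50% of a peak required to lie inside it, 1 Sox2-EGFPhigh+ and 0 Sox2-EGFP- samples had one. *Myo15*, which delivers proteins to the stereocilia tips, had no promoter peak in any of the 9 samples at its protein-coding start sites. With the start sites of all its annotated transcripts, 3 Sox2-EGFPhigh+ and 0 Sox2-EGFP- samples had one.

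The tip link cadherins and their scaffold came next. *Cdh23*, the upper part of the link, had no promoter peak in any sample at its protein-coding start sites, and with all annotated transcripts it had one in 4 Sox2-EGFPhigh+ and 3 Sox2-EGFP- samples. *Pcdh15*, the lower part, has a region at its first start site (chr10:72561845-72563059, UTR exon 1) with a peak in 5 Sox2-EGFPhigh+ samples, 1 of them E12, and in all 3 Sox2-EGFP- samples. Its median summit lay 787 bp inside the gene, and the peaks of the 3 Sox2-EGFP- samples, and also those of E12 replicate 1 and E14.5 replicate 2 of Sox2-EGFPhigh+ cells, stopped short of the promoter window. The percentiles of the whole region were 43.6 ± 26.6 (SD, n = 4) at E14.5 and E16 against 30.1 ± 20.4 (SD, n = 3) and overlapped (two-sided exact permutation p = 0.457, Benjamini-Hochberg adjusted p = 0.552). A second region, at an internal start site (chr10:73284434-73284792), had a peak in E14.5 replicate 1 and both E16 samples of Sox2-EGFPhigh+ cells and in no other sample. The percentile of the promoter peaks was 38.5 ± 25.7 (SD, n = 4) against 0 in all 3 Sox2-EGFP- samples (two-sided exact permutation p = 0.143, Benjamini-Hochberg adjusted p = 0.452).

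*Ush1c*, which encodes the scaffold harmonin at the tip link anchors, had a promoter peak (chr7:53493773-53494102) in the same 3 samples, with fold enrichments of 4.76 at E14.5 and 4.84 and 4.30 at E16, and in no other sample. *Espn*, a bundler of stereocilia actin, had a peak at its first start site (chr4:151525929-151526716) in 4 Sox2-EGFPhigh+ samples, with fold enrichments of 5.93 at E12 (replicate 1), 8.65 at E14.5 (replicate 1) and 6.68 and 6.81 at E16, and in 2 Sox2-EGFP- samples, at 2.99 and 4.17. A second *Espn* promoter region at an internal start site (chr4:151504877-151506901) held a peak in 5 Sox2-EGFPhigh+ samples, 1 of them E12, and in all 3 Sox2-EGFP- samples, although not every one of these peaks reached the promoter window. Over this whole region the percentiles at E14.5 and E16 were 59.8 ± 20.5 (SD, n = 4) against 34.2 ± 9.42 (SD, n = 3) and overlapped (two-sided exact permutation p = 0.114, Benjamini-Hochberg adjusted p = 0.433). With promoters counted by a summit within 1000 bp of a start site, 5 Sox2-EGFPhigh+ and 3 Sox2-EGFP- samples had an *Espn* peak. Taking the stronger peak of a sample that reached the promoter window, the *Espn* percentile was 54.3 ± 36.4 (SD, n = 4) in Sox2-EGFPhigh+ cells of E14.5 and E16 and 8.52 ± 8.35 (SD, n = 3) in Sox2-EGFP- cells. For *Ush1c* it was 47.1 ± 31.5 (SD, n = 4) against 0 in each of the 3 samples. For both genes the two-sided exact permutation p was 0.143 and the Benjamini-Hochberg adjusted p 0.452, with no peak of E14.5 replicate 2 reaching the promoter window of either. *Tmc1*, a pore-forming part of the transduction channel, had no promoter peak in any sample under either annotation.

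At the synapse, *Slc17a8*, the vesicular glutamate transporter of inner hair cells, showed the clearest contrast in favour of Sox2-EGFPhigh+ cells. Its promoter peak (chr10:89083762-89084358, summit at -66 bp from the nearest start site) had fold enrichments of 12.4 and 4.77 at E14.5 and 7.65 and 6.02 at E16, and was absent from E12 and from the 3 Sox2-EGFP- lists. The contrast is one of presence and absence. The percentiles were 72.6, 52.7, 62.3 and 43.2, or 57.7 ± 12.6 (SD, n = 4), and the groups did not overlap (two-sided exact permutation p = 0.0286, Benjamini-Hochberg adjusted p = 0.296). *Otof*, the calcium sensor of vesicle release, went the other way. Its promoter peak (chr5:30764094-30764479) was found in all 3 Sox2-EGFP- samples, at fold enrichments of 3.11, 4.55 and 4.89, and in 2 Sox2-EGFPhigh+ samples, at 4.72 (E14.5 replicate 1) and 3.47 (E16 replicate 2). The percentiles were 6.73 ± 9.43 (SD, n = 4) against 23.4 ± 18.2 (SD, n = 3) and overlapped (two-sided exact permutation p = 0.171, Benjamini-Hochberg adjusted p = 0.4996). By rank the *Otof* peaks were separate, at 20945.5, 20015 and 13358.5 in Sox2-EGFP- cells against 53069.5 and 61316 in the 2 Sox2-EGFPhigh+ samples. For the rank, a choice made after seeing the data, the unadjusted two-sided exact permutation p was 0.0286 for *Otof* and 0.0571 for *Slc17a8*. The 2 Sox2-EGFPhigh+ lists with an *Otof* promoter peak were the longest, and the rank moves with list length.

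**Figure D3:**
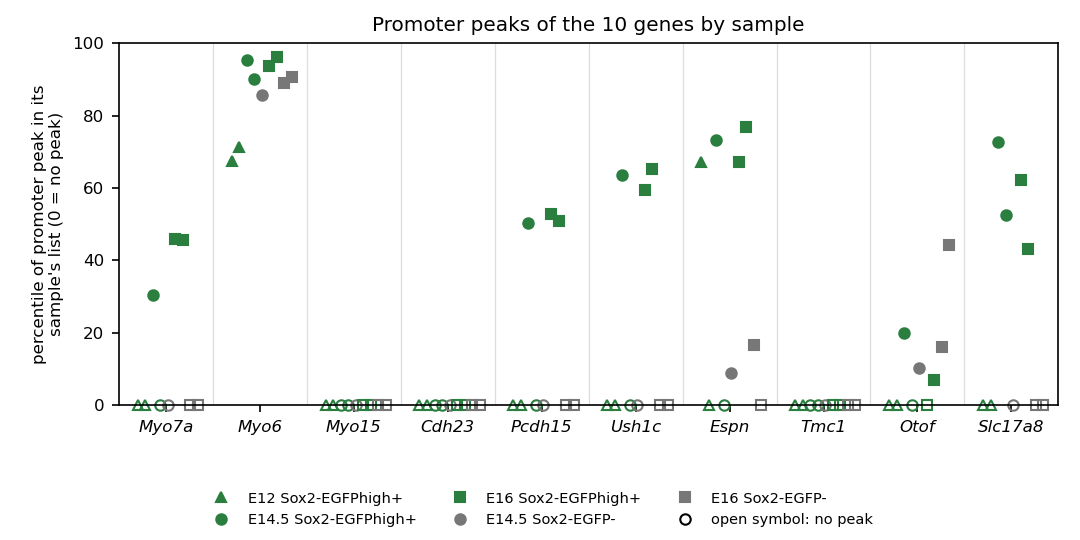
Percentile of the strongest promoter peak in its sample's list (vertical axis, 0 for no peak, drawn as open symbols) for each of the 10 genes, with 9 samples per gene, green for Sox2-EGFPhigh+ and grey for Sox2-EGFP-. *Myo6* lies between 67.4 and 96.3 in all 9 samples, *Slc17a8* between 43.2 and 72.6 in the 4 later Sox2-EGFPhigh+ samples alone, and *Myo15*, *Cdh23* and *Tmc1* lie at 0 throughout.

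E14.5 replicate 2 decided most of these comparisons. Without it, 6 of the 7 listed genes tested (85.7%) had Sox2-EGFPhigh+ promoter percentiles above all Sox2-EGFP- samples, beside 49.8% of all genes tested. The 3 Sox2-EGFPhigh+ lists then left were the longest. Without E16 Sox2-EGFP- replicate 2 it was 2 of 7 (28.6%), beside 18.6%. In equal lists 1 listed gene could be tested and the count was 0, beside 7.15%.

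Of the 60 distal regions, 51 (85%) were found in Sox2-EGFPhigh+ cells alone, beside 78.7% of all distal regions. Another 5 were found in both cell types, beside 14.4%, and 4 in Sox2-EGFP- cells alone, beside 6.91%. These shares lay near the background, and they rest on the longest lists. Of the 60, 36 (60%) were found in E14.5 replicate 1 and E16 replicate 2 of Sox2-EGFPhigh+ cells and in no other sample, beside 43.7% of all distal regions. Without E14.5 replicate 1 the number in Sox2-EGFPhigh+ cells alone was 10 of 19, beside 58.7% of all distal regions, and without E16 replicate 2 it was 15 of 24, beside 62%. In equal lists 5 distal regions were left, 4 of them in Sox2-EGFPhigh+ cells alone, beside 64.6% of all 5969 distal regions. The *Espn* regions among the 4 each had a peak in 1 E12 sample alone, a stage without Sox2-EGFP- cells. In the full lists they lay within regions called in all 3 Sox2-EGFP- samples, so that they show no restriction to a cell type.

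The summits of the distal regions lay in introns in 50 of 60 cases (83.3%), 48 of them in the listed gene itself, and 48.8% of all distal regions had their summit within a protein-coding transcript. *Pcdh15*, which spans 1550 kb, held 16 of the 60, *Cdh23* and *Myo6* 8 each, *Tmc1* 7, *Myo7a* and *Otof* 5 each, *Espn* 4, *Myo15* and *Ush1c* 3 each and *Slc17a8* 1. The remaining 2 intronic regions were counted for *Myo6* but lay in introns of *Impg1*. The median width was 495.5 bp, against 516 bp for all distal regions, and the median distance to the nearest start site 25.1 kb, against 31.9 kb. The median number of samples with a peak was 2 in both sets.

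**Figure D4:**
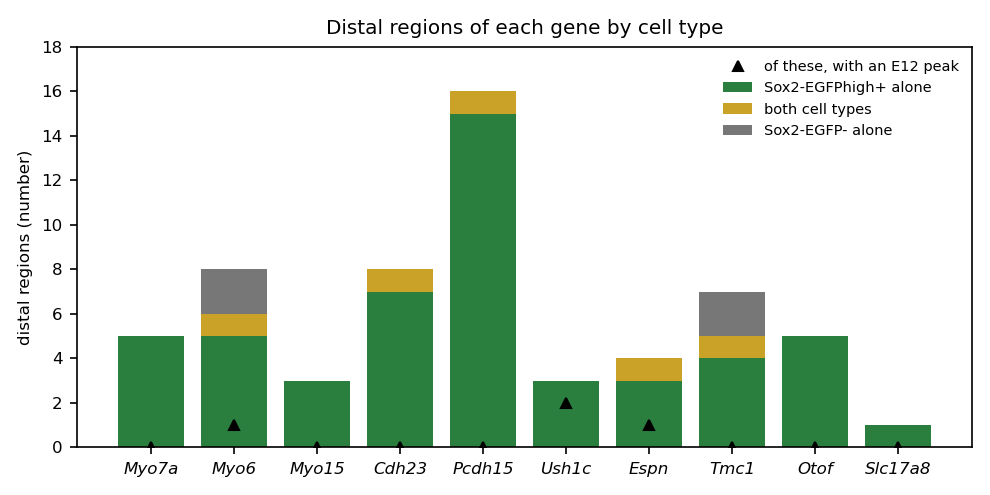
Number of distal regions of each gene (vertical axis), stacked by the cell type in which they were found, with triangles for the number that had a peak at E12. *Pcdh15* has 15 of 16 regions in Sox2-EGFPhigh+ cells alone, and triangles above 0 stand at *Ush1c* (2), *Espn* (1) and *Myo6* (1).

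Of the 60 distal regions, 7 (11.7%) were found in all 4 Sox2-EGFPhigh+ samples of E14.5 and E16 while the Sox2-EGFP- lists lacked them, beside 8.41% of all distal regions. They belonged to *Pcdh15* (3), *Ush1c* (2), *Cdh23* (1) and *Myo6* (1). This pattern, by which they were picked, always gives the smallest two-sided exact permutation p for presence, 0.0286 (Benjamini-Hochberg adjusted p over 69351 regions 0.295). That p restates the choice and adds no support. On the percentile the same test gave 0.0571 (adjusted p 0.424) for the *Pcdh15* regions upstream and in intron 25 and the *Ush1c* region in intron 14. For the rest of the 7 it gave 0.0286 (adjusted p 0.320). By the same choice the percentile was 0 in every Sox2-EGFP- sample, so these p-values add no support either. No region passed an adjusted p of 0.05 (0 regions), and 6187 had an unadjusted p under 0.05 for the percentile. The number was 11 of 59 without E14.5 replicate 2, beside 27.4% of all distal regions. It was 4 of 57 with a −log10 q of at least 5, beside 4.88%, 3 of 60 where the peaks of a sample had to cover 50% of a region, beside 3.07%, and 0 of 5 in equal lists, beside 3.42%.

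The strongest of the 7 was in intron 1 of *Myo6* (chr9:80039998-80040669, 27.4 kb into the gene), whose summit sequence is printed above. Its fold enrichment was 7.14 and 5.42 at E12, 10.7 and 8.26 at E14.5 and 10.04 and 6.81 at E16, and no Sox2-EGFP- list held it. The percentiles were 75.9 and 31.8 at E12 and between 77.2 and 95.7 at E14.5 and E16. The promoter of *Myo6* was thus called in both cell types, and this intronic region in every Sox2-EGFPhigh+ sample and no other.

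In *Ush1c*, the region in intron 4 (chr7:53482718-53483777, 10.6 kb into the gene) was also found in all 6 Sox2-EGFPhigh+ samples. Its fold enrichment was 4.71 and 5.56 at E12, 7.92 and 4.01 at E14.5 and 5.96 in both E16 samples, with percentiles of 51.0 and 65.9 at E12 and between 61.8 and 86.9 later. A region in intron 14 (chr7:53473123-53474246) was found at E12 in replicate 1, near the bottom of its list at percentile 2.74, and later at percentiles between 20.3 and 61.1. The *Ush1c* promoter itself had no peak at E12.

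In *Cdh23*, the region with its summit in intron 10 (chr10:59985906-59986450, 173 kb into the gene) had fold enrichments of 8.74 and 3.76 at E14.5 and 6.06 and 8.47 at E16. The *Cdh23* region with the highest mean percentile over the Sox2-EGFPhigh+ samples lay in intron 1 (chr10:60149396-60150637), and it was found in 3 Sox2-EGFPhigh+ and in all 3 Sox2-EGFP- samples, with percentiles from 17.0 to 63.4 in the latter. No *Cdh23* region had a peak at E12.

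In *Pcdh15*, the 3 regions lay at -2.435 kb from the first start site (chr10:72559462-72559892), in intron 3 (chr10:73285425-73286359, 1505 bp past the internal start site) and in intron 25 (chr10:73974877-73975598). The one in intron 3 was the strongest, with fold enrichments of 6.95 and 4.47 at E14.5 and 5.00 and 6.40 at E16 and percentiles between 35.4 and 74.4. The upstream region had percentiles between 17.4 and 58.7, and the one in intron 25 between 10.7 and 58.7. None of the 16 distal regions of *Pcdh15* had a peak at E12, and 1, in intron 3 (chr10:73392414-73392899), was shared with 2 Sox2-EGFP- samples.

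*Espn* had 1 region in intron 4 (chr4:151512508-151513513) that was found in all 9 samples. Its fold enrichment was 4.51 and 5.76 at E12, 7.79 and 3.97 at E14.5 and 6.94 and 5.81 at E16, against 4.23, 6.98 and 4.49 in Sox2-EGFP- cells, so that fold enrichments overlapped. The percentiles, 73.6 ± 5.23 (SD, n = 4) against 52.6 ± 8.90 (SD, n = 3), were separate (two-sided exact permutation p = 0.0286, Benjamini-Hochberg adjusted p = 0.320), but 3 of the 4 Sox2-EGFPhigh+ lists are longer than any Sox2-EGFP- list. Counted from the strongest peak, the region ranked 15002.5 and 7834 at E14.5 and 9355.5 and 16599.5 at E16 in Sox2-EGFPhigh+ cells and 10123.5, 9822.5 and 13767 in Sox2-EGFP- cells. The ranks overlapped like the fold enrichments, and the separation was seen on the percentile scale alone.

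The other 5 genes had no distal region in all 4 samples. The best placed regions lay in intron 30 of *Myo7a* (chr7:105220143-105220518, 2 samples), intron 1 of *Myo15* (chr11:60289145-60289763, 3 samples), intron 17 of *Tmc1* (chr19:20871845-20872527, 2 samples), intron 3 of *Otof* (chr5:30725944-30726636, 3 samples) and upstream of *Slc17a8* (chr10:89092804-89093176, 2 samples). All were found in Sox2-EGFPhigh+ cells of E14.5 or E16 alone. The *Otof* region had fold enrichments of 8.72 at E14.5 (replicate 1) and 6.50 and 6.03 at E16, higher than the *Otof* promoter peak in the 2 lists that held both.

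All 3 Sox2-EGFP- samples and no Sox2-EGFPhigh+ sample shared 3 of the 60 distal regions (5%), beside 2.9% of all distal regions. Of these, 2 lay in *Tmc1*, in intron 5 (chr19:20973107-20973409; fold enrichments 4.28, 6.98 and 5.20) and intron 4 (chr19:20976026-20976555; 3.99, 6.50 and 3.65). The third lay in intron 1 of *Myo6* (chr9:80023548-80024195; 5.57, 5.22 and 5.95). The two-sided exact permutation p for presence was 0.0286 for each and the Benjamini-Hochberg adjusted p 0.295. These values follow from the pattern by which the 3 were picked and add no support. *Myo6* thus held an intron 1 region of either kind.

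**Figure D5:**
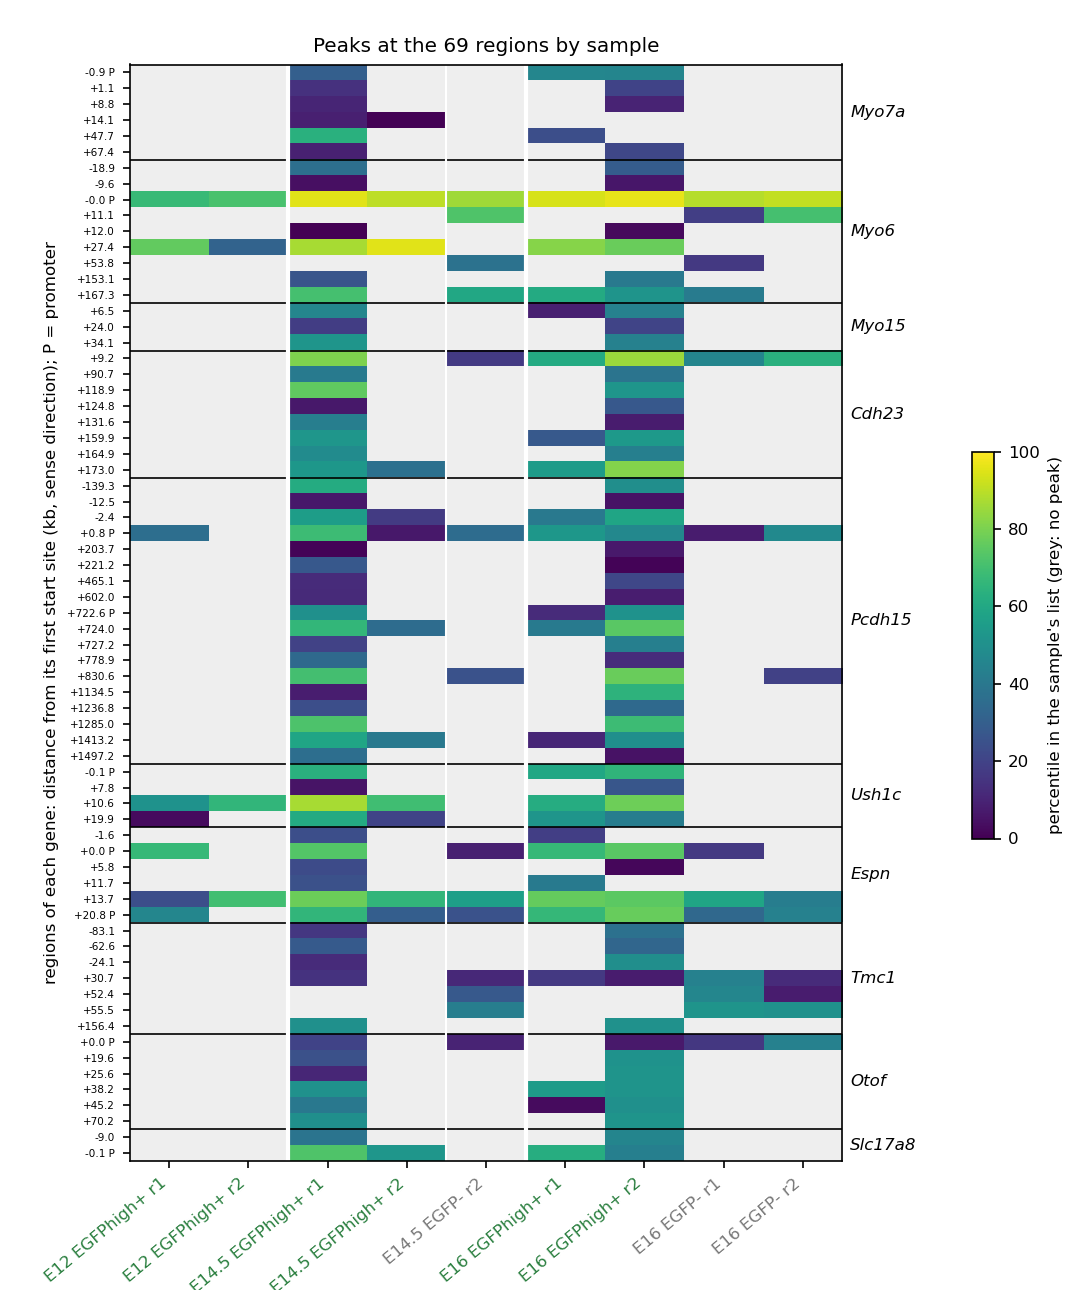
Percentile of the peak in its sample's list (colour, grey for no peak) at the 69 regions of the 10 genes (rows, labelled with the distance in kb from the first start site of the gene and P for promoter regions) in the 9 samples (columns). The *Myo6* promoter and the *Espn* region at 13.7 kb are coloured in all 9 columns, and 36 rows are coloured in E14.5 replicate 1 and E16 replicate 2 of Sox2-EGFPhigh+ cells alone.

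At E12, before hair cells form, 4 of the 60 distal regions had a peak in at least 1 sample (6.67%), beside 9.6% of all distal regions. These were the *Myo6* region at 27.4 kb, the *Ush1c* regions in introns 4 and 14 and the *Espn* region in intron 4, and all 4 were found again in all 4 later Sox2-EGFPhigh+ samples. The filter of the authors kept an E12 peak only where another Sox2-EGFPhigh+ sample overlapped it, so finding such regions again is partly built in. The share of all distal regions with an E12 peak that recurred in this way was not counted. In all 6 Sox2-EGFPhigh+ samples 3 of the 60 were found, beside 2.18% of all distal regions. *Myo7a*, *Myo15*, *Cdh23*, *Tmc1*, *Otof* and *Slc17a8* had no peak of any kind at E12. How many of all genes lacked any E12 peak was not counted. With 2 samples at E12 no test between stages was made.

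When each list was cut to its 7577 strongest peaks, the E12 samples held 5 and 4 peaks of the listed genes. The later Sox2-EGFPhigh+ samples held 1 and 3 at E14.5 and 2 and 1 at E16, and the Sox2-EGFP- samples 2, 1 and 2. The 7 regions left belonged to *Espn*, *Ush1c* and *Myo6*. Among them, the *Ush1c* intron 4 region was kept in both E12 samples and in 3 Sox2-EGFPhigh+ samples in all, and the *Myo6* region at 27.4 kb in both E12 samples and in 4 in all. The *Myo6* promoter was kept in all 9 samples. The cut keeps the whole of the shorter E12 list and 11.4% of the longest list, so that these counts do not compare the stages at equal depth.

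Of all protein-coding genes, 63.7% had a promoter peak in Sox2-EGFPhigh+ cells, 39.4% at E12 and 7.56% in Sox2-EGFPhigh+ cells alone. In Sox2-EGFP- cells it was 54.6% at E14.5 and 56.3% at E16. The counts of other lists are to be read beside these shares. Other genes of the hair bundle, 29 in number, had a promoter peak in 21 cases in Sox2-EGFPhigh+ cells, in 13 in Sox2-EGFP- cells and in 9 at E12, with 8 in Sox2-EGFPhigh+ cells alone. *Ush1g*, a scaffold that binds harmonin, was among the 8, with 3 Sox2-EGFPhigh+ samples and 0 Sox2-EGFP- samples. *Myo3b* and *Eps8l2* were found in all 4 later Sox2-EGFPhigh+ samples and in no Sox2-EGFP- sample, like *Slc17a8* and 1.5% of all genes. Other synapse and membrane genes had a promoter peak in 12 of 14 cases in Sox2-EGFPhigh+ cells, 9 in Sox2-EGFP- cells and 3 at E12. Of 4 hair cell transcription factors, 4 had a promoter peak in Sox2-EGFPhigh+ cells, 2 in Sox2-EGFP- cells and 1 at E12. Among them, *Atoh1*, which starts hair cell fate, had one in all 4 later Sox2-EGFPhigh+ and all 3 Sox2-EGFP- samples and in 0 E12 samples, and *Pou4f3*, which maintains it, in 2 later Sox2-EGFPhigh+ samples alone. *Barhl1* had one in all 4 later Sox2-EGFPhigh+ samples, 1 E12 sample and 0 Sox2-EGFP- samples. *Lhx3* had the same pattern as *Atoh1*.

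Markers of the cell types a gate could hold were counted in the same way. Promoters of all 9 prosensory and otic epithelial genes had a peak in Sox2-EGFPhigh+ cells, and 6 of 9 in Sox2-EGFP- cells, *Sox2* included in all 9 samples, so that its promoter does not separate the gates. *Pax2*, *Epcam* and *Cdh1* had promoter peaks in Sox2-EGFPhigh+ cells alone. Promoters of otic mesenchyme genes had a peak in 6 of 8 cases in each cell type, of neuronal genes in 4 of 4 and 2 of 4, of glial genes in 2 of 4 and 1 of 4, of endothelial genes in 2 of 5 in both, of roof and border epithelium in 1 of 4 and 0 of 4, and of macrophages in 0 of 6 in both. The count of these markers moved with list length too: mesenchymal promoters numbered 0 to 6 over Sox2-EGFPhigh+ samples and 5 to 6 over Sox2-EGFP- samples. Their part in the peaks of the listed genes was not tested.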

How the data were processed

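ATAC-seq peak lists of 9 samples were used, grouped by title. According to the methods, the authors ran Trim Galore on the reads, used Bowtie2 to map them to mm9, took out duplicates and mitochondrial reads (Picard, SAMtools) and ran MACS2 sample by sample. A peak was then kept if any further sample of its cell type had an overlapping one, so that samples of a cell type share peaks by construction. Versions are not given in the sources used here. The deposited fold enrichment is a ratio, of reads piled up at the summit over the background nearby, and the deposited −log10 p and −log10 q are those of MACS2, all made by the authors within a sample. The deposited score, which is 10 times the −log10 q without its decimals, was only checked. The lists hold no read counts, so that no interval for counting error can be computed from them. The read depths that the study gives enter no count or test here. By the study's account, E14.5 Sox2-EGFPhigh+ replicate 2 had more reads than replicate 1 but a far smaller share of reads in peaks. Both E12 samples had few reads and also a small share in peaks. How this shaped the lists was not tested.

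Peaks on chromosomes 1 to 19, X and Y were assigned to 51710 protein-coding transcripts of GENCODE vM1 on mm9, and 344 peaks on other sequences were left out. Regions, promoters and percentiles were made as described with the results, using Python 3.11.15, NumPy 2.4.6, pandas 2.3.3 and SciPy 1.17.1. Tests were exact permutations over samples, run over all genes or regions, and were tested on simulated data. The tests swap samples between the cell types, while the filter of the authors kept peaks by cell type before any swap. The effect of this filter on the p-values was not tested. Replicates of Sox2-EGFPhigh+ cells came from separate litters. All 10 genes are named, with promoter regions, distal regions found in all 6 Sox2-EGFPhigh+ samples, in both E12 samples, or in all samples of one cell type at E14.5 and E16 and none of the other, and the distal region of each gene with the best mean percentile. The genes, other lists, motifs and tests were chosen with earlier results of these data known. One motif and one marker gene that had been planned are not reported here. Alternatives were a −log10 q of at least 5, equal lists, an overlap of 50%, a merging distance of 0 bp, start sites within 100000 bp, a summit within 1000 bp, all transcripts, batch 2 alone, pairs of equal stage and number, the rank in place of the percentile (added after seeing the data), and leaving out each sample in turn with the filter of the authors applied again.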

Additional observations from a re-analysis of the deposited data

Results flagged for a closer look

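In 3 of 18 sets of promoter or region percentiles over the 4 Sox2-EGFPhigh+ samples of E14.5 and E16, 1 sample stood apart from the other 3. The measure was Dixon's ratio of its gap to the whole range, with a limit meant to be passed by about 5% of sets by chance. That rate does not hold here, since a missing peak is entered as 0 and the promoter sets of *Myo15*, *Cdh23* and *Tmc1* were 0 throughout. The sets were the promoter percentiles of *Pcdh15* (ratio 0.953), *Ush1c* (0.911) and *Espn* (0.873). In each, E14.5 replicate 2 had no peak that reached the promoter window while the other 3 had one. At *Pcdh15* and *Espn* it did have a peak in a promoter region, at percentiles 6.28 and 30.0, that stopped short of the window. Its list, of 22962 peaks, was also the shortest of the 4.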

How the results depend on the processing

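The results depended most on the length of the lists. In equal lists, promoter peaks in Sox2-EGFPhigh+ cells fell from 7 genes to 2, genes with separate promoter percentiles from 1 to 0, distal regions in Sox2-EGFPhigh+ cells alone from 51 to 4, and distal regions in all 4 later Sox2-EGFPhigh+ samples and no Sox2-EGFP- sample from 7 to 0. The last of these was 4 with a −log10 q of at least 5 and 3 with an overlap of 50%, and the 50% overlap left 2 of 4 distal regions with an E12 peak. Leaving out each sample in turn gave 6 to 7 promoters, 10 to 53 distal regions in Sox2-EGFPhigh+ cells alone, 7 to 11 in all 4 later samples, 1 to 6 separate promoter percentiles and 3 to 4 distal regions at E12. The extremes of 10 and 11 came without E14.5 Sox2-EGFPhigh+ replicate 1 and replicate 2, and the 6 separate percentiles also without replicate 2. The causes were not tested. The other 28 values of these results stayed within 1.5 times, batch 2 alone and the rank in place of the percentile, chosen after seeing the data, included. With the replicate block, the 3 pairs of equal stage and number alone, 7 promoters, 52 distal regions in Sox2-EGFPhigh+ cells alone, 7 in all later samples and 1 separate percentile were found. The numbers were not taken as pairs, because the labels do not say that a number marks shared ducts. E16 samples of the same number deviated together with a correlation of 0.0603 over 68675 regions. This value cannot show whether ducts were shared, since the E16 samples numbered 1 are also those of batch 1. If they were pairs, the p-values would not allow for it, and the 3 pairs alone could not give a two-sided exact permutation p below 0.25. The lists show called peaks and not reads, so that a missing peak sets no upper limit on openness.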
